A study of Mus musculus with 18 samples.

Results

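H19 and Igf2 are 2 of the 24116 genes in the deposited table of RNA read counts for mouse embryonic stem (ES) cells, chosen by their symbols as the imprinted pair at the distal end of chromosome 7. Both passed the filter on low counts, as did 14901 genes in all. H19 makes a spliced, polyadenylated long non-coding RNA and is normally expressed from the maternal chromosome. Igf2 encodes insulin-like growth factor 2, a fetal growth factor normally expressed from the paternal chromosome. Between the genes lies a control region that CTCF binds when it is unmethylated. On the maternal chromosome bound CTCF insulates Igf2 from enhancers beyond H19, and on the paternal chromosome methylation keeps CTCF off and H19 silent. The counts used here do not separate the parental chromosomes and hold no measurement of CTCF binding or methylation.

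The 18 libraries came from ES cells of strain 129S6/SvEvTac kept in serum with LIF, a cytokine that maintains the undifferentiated state. The groups were Snf2h ko cells carrying a wild-type Snf2h add-back (3 libraries), Snf2h ko cells carrying a mutant Snf2h add-back (2), Snf2h ko cells (5) and wild-type cells (8). Snf2h, gene symbol Smarca5, is the ATPase of the ISWI chromatin remodellers, and the growth notes call the mutant an ATPase mutant. The ko and mutant add-back lines were grown on feeder fibroblasts for at least the first passages after thawing, whereas the other lines were kept on gelatin, so feeder history and genotype cannot be told apart in those lines. The labels name no clone and give no batch. The design text of the series speaks of 2 to 5 RNA libraries for a condition, whereas 8 are titled wild type, and all 8 are used here as labelled. They call the replicates biological without naming separate cultures, so p-values measure the spread between these libraries, which may be technical.

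Total counts ran from 15.3 M to 37.0 M per library and formed 3 depth sets, which are defined from the data and are not groups of the study. The low set (15.3 M to 19 M) holds all add-back libraries, ko replicates 3 to 5 and wild-type replicates 6 to 8. Ko replicates 1 and 2 and wild-type replicates 1 and 2 form the middle set (22.9 M to 25.3 M). The high set (31.0 M to 37.0 M) holds wild-type replicates 3 to 5 alone. The mean chi-square over genes between replicates of a group was 31.0 to 69.2 across sets. Within the low and middle sets it was 1.48 to 2.55 for ko and wild-type replicates, but it reached 40.8 within the high set and 14.0 between the mutant add-back libraries. The comparisons below are therefore given over all libraries and within a set. P-values from the fit by set rest on the spread within sets and leave out the differences between them. Smarca5 itself averaged 9.36 ± 0.59 counts per 1 M reads (CPM) in ko libraries, against 185 ± 29.1 CPM in wild type (SD, n = 5 and 8). The wild-type add-back averaged 86.0 ± 3.63 CPM (n = 3) and the mutant add-back 58.5 ± 14.3 CPM (n = 2). All lines made from the ko also differed from wild type in Y-linked genes. Uty averaged 0.132 CPM in the wild-type add-back, 0.171 CPM in the mutant add-back and 0.434 CPM in ko, against 31.8 CPM in wild type. The part of this difference in the comparisons with wild type was not tested.

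In RefSeq on GRCm38, H19 (Entrez gene 14955) lies on the minus strand of chromosome 7 from 142575530 to 142578146. Igf2 (Entrez gene 16002) lies on the same strand from 142650768 to 142666816, 72.6 kb away. H19 also carries a microRNA, Mir675, whose hairpin lies wholly inside an H19 exon and is cut from the H19 transcript. Its products are the short RNAs through which part of H19's growth-restraining activity in the mouse placenta is known to act. They are shown because the table of counts holds a row for the hairpin. In RefSeq's entries below, the seed (bases 2 to 8) is in capitals for the mature forms, and both mature forms are in capitals in the hairpin at chr7:142577064-142577147.
mmu-miR-675-5p: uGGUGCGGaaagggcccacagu
mmu-miR-675-3p: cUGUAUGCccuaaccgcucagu
mmu-mir-675 hairpin: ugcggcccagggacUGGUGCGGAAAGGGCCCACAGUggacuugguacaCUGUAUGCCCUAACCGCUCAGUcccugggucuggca
Neither seed is shared with another of the 1738 mature miRNAs in the mouse table.

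Igf2 is transcribed from several promoters, and the RefSeq table for GRCm38.p6 gives 4 start windows of 300 bases for it. The gene count sums transcripts from all of them, so the values below cannot say which start was used. The windows differ in base composition, from 49.7% to 64.7% G or C and from 2 to 24 CpG dinucleotides, against a median of 7 CpG per window over all windows. The GC box GGGCGG, the short motif of Sp1-type factors, was found on either strand in windows 3 and 4. These are the windows printed below because they hold the only matches to any motif searched, with the GC boxes in capitals (CCGCCC is the box read from the other strand).
Igf2 start window 3, chr7:142658755-142659054, minus strand: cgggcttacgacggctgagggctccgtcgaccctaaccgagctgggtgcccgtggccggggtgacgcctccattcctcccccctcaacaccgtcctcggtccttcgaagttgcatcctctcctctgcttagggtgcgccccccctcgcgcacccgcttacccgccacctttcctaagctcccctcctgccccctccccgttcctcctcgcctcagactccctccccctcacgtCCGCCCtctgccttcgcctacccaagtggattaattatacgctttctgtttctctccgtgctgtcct
Igf2 start window 4, chr7:142657447-142657746, minus strand: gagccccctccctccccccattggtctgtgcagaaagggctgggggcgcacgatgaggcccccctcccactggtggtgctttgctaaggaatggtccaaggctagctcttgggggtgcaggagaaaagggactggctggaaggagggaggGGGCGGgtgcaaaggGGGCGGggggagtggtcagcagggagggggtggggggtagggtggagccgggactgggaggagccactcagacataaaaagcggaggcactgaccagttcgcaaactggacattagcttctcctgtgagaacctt
The GC box was present in 35.7% of all 32851 mouse windows. The CTCF core motif was in none of the 4 Igf2 windows and in 2.43% of all windows, and the TATA box TATAAA was in none of them and in 13.6% of all. No match says only that these letters are not in those windows, and the control region between the genes was not examined.

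H19 was lower in Snf2h ko libraries of both depth sets than in wild type, whereas Igf2 was higher in the ko libraries of the middle set alone. H19 stood at 18.9, 21.4, 2.09, 2.17 and 3.49 CPM in ko replicates 1 to 5. In the 8 wild-type libraries its lowest value was 91.7 CPM, its median 132 CPM and its highest 185 CPM. The groups did not overlap, and within the ko group the middle-set libraries stood well above the low-set libraries. The fitted log2 change of H19 was −3.75 ± 0.48 (SE) with an adjusted p of 3.8e-06 (edgeR quasi-likelihood test with Benjamini-Hochberg adjustment, as for every adjusted p here). Each SE of a log2 change was back-calculated, as the absolute change over the square root of the test's F value. That test called 55.0% of all tested genes in this comparison, and 105 genes fell further.

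Igf2 stood at 88.8 and 100.5 CPM in ko replicates 1 and 2, but at 25.5, 26.1 and 26.1 CPM in ko replicates 3 to 5. Wild-type libraries ran from 19.9 CPM through a median of 25.3 CPM to 31.0 CPM. Only the middle-set ko libraries lay outside the wild-type range. Over all libraries Igf2 rose by 1.10 ± 0.29 (SE) on the log2 scale, with an adjusted p of 0.0032. In the fit by set Igf2 rose in the middle set by 2.12 ± 0.13, adjusted p 2.8e-11. In the low set its change was 0.00 ± 0.12, adjusted p 0.97.

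The 2 genes thus moved in opposite directions within the middle set, where H19 changed by −2.71 ± 0.12 (adjusted p 1.2e-13). Within the low set H19 changed by −5.27 ± 0.13 (adjusted p 2.1e-17) with no Igf2 change past the threshold. The shares of all tested genes called were 61.8% in the middle set and 60.1% in the low set. A direct test of the difference between the ko effects, low set minus middle set, gave −2.56 ± 0.19 for H19 (adjusted p 2.2e-09) and −2.11 ± 0.17 for Igf2 (adjusted p 1.4e-08), in a comparison that called 26.7% of genes. Set against the middle-set ko libraries, the low-set ko libraries were lower in both genes, by −2.97 ± 0.15 in log2 for H19 (adjusted p 1.3e-11) and −1.87 ± 0.12 for Igf2 (adjusted p 2e-10), where 43.8% of genes were called. What separates the sets is not given by the labels.

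**Figure D1:**
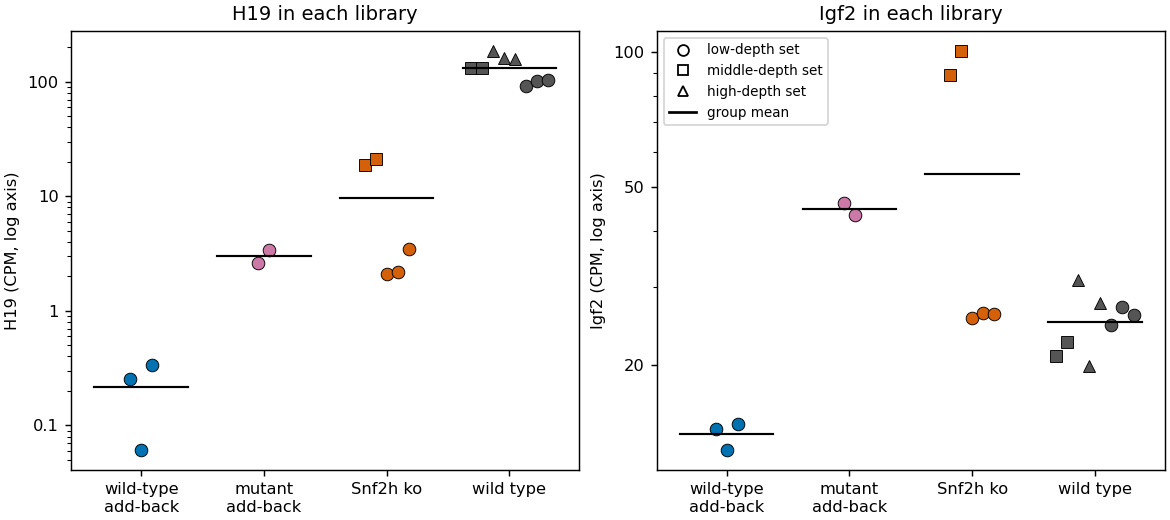
Level of H19 (left) and Igf2 (right) in each library in CPM on log axes, by group, with depth sets as symbols and the group mean as a bar. H19 separates wild type, at 91.7 CPM or more, from every other library. Igf2 is high in the middle-set ko libraries and the mutant add-back.

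Within wild type the pair varied less. H19 averaged 99.3 ± 6.71 CPM in the low set (n = 3), 132 ± 0.864 CPM in the middle set (n = 2) and 168 ± 14.6 CPM in the high set (n = 3). The low set was below the middle set by −0.41 ± 0.10 in log2 (adjusted p 0.0022, 43.5% of genes called) and the high set above it by 0.35 ± 0.10 (adjusted p 0.011, 28.0% called). Igf2 averaged 25.8 ± 1.21, 21.8 ± 1.10 and 26.2 ± 5.68 CPM in the low, middle and high sets. Its low-to-middle and high-to-middle changes of 0.24 ± 0.13 and 0.26 ± 0.12 each had an adjusted p of 0.13.

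Adding back wild-type Snf2h was not accompanied by H19 levels near those of wild type. H19 had 4, 1 and 5 counts in the 3 wild-type add-back libraries, or 0.255, 0.0615 and 0.337 CPM. The 10 counts together correspond to 0.214 CPM with an exact Poisson 95% interval of 0.103 to 0.393 CPM, which covers counting error only. Every ko library and every wild-type library was higher. Against ko, H19 fell by 5.50 on the log2 scale (SE 1.08, adjusted p 0.00050, 45.0% of genes called). Against wild type the change was −9.25 ± 0.99 (adjusted p 5.7e-05), the largest fall but 1 among 14901 genes in a comparison that called 1.60% of them. Within the low set H19 was −3.55 ± 0.38 against ko (adjusted p 8.2e-08, 58.6% called) and −8.82 ± 0.20 against wild type (adjusted p 5.1e-18, 22.5% called). With 1 to 5 counts per library, the size of these changes depends on few reads. The low-set SEs, back-calculated from the test, are narrower than the counting interval above and do not give the uncertainty of that size.

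Igf2 stood at 14.4, 13.0 and 14.8 CPM in the wild-type add-back libraries, below every ko and wild-type library. Against ko it fell by 1.93 on the log2 scale (SE 0.41, adjusted p 0.00098), and by 0.88 (SE 0.12, adjusted p 3.9e-06) within the low set. Against wild type the pooled change of −0.83 ± 0.38 had an adjusted p of 0.31, and within the low set Igf2 was lower by −0.88 ± 0.12 (adjusted p 3.1e-05). Both genes of the pair were therefore lower in the wild-type add-back than in wild type within the low set.

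The mutant add-back showed the reciprocal pattern against wild type. H19 stood at 2.64 and 3.41 CPM in mutant add-back replicates 1 and 3, inside the ko range and below every wild-type library. Its change against wild type was −5.46 ± 0.85 (adjusted p 5.6e-05, 45.5% of genes called), and −5.03 ± 0.16 within the low set (adjusted p 9.3e-16, 60.3% called). Igf2 stood at 46.1 and 43.4 CPM, above every wild-type library. The pooled Igf2 change against wild type was 0.84 ± 0.39 with an adjusted p of 0.082, and within the low set Igf2 rose by 0.79 ± 0.12 (adjusted p 1.4e-05).

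Against ko, neither gene passed the threshold in the mutant add-back over all libraries. The changes were −1.71 ± 0.78 for H19 (adjusted p 0.30) and −0.26 ± 0.43 for Igf2 (adjusted p 0.79), and 0.322% of all genes were called. Within the low set Igf2 was higher in the mutant add-back than in ko, by 0.79 ± 0.12 (adjusted p 0.00023, 14.6% called), while H19 changed by 0.24 ± 0.22 (adjusted p 0.51). The wild-type add-back was lower than the mutant add-back in both genes, by −3.79 ± 1.40 for H19 (adjusted p 0.041) and −1.67 ± 0.47 for Igf2 (adjusted p 0.010), with 37.0% of genes called. With the estimates of spread by set, both differences kept their size and had adjusted p values of 5.4e-08 and 9.9e-10 (60.6% called). Those smaller values leave out the spread between depth sets. The pooled H19 call did not hold when any of the 5 libraries was left out, with adjusted p values from 0.075 to 0.13, and the pooled Igf2 call was lost without mutant add-back replicate 1 (adjusted p 0.061).

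**Figure D2:**
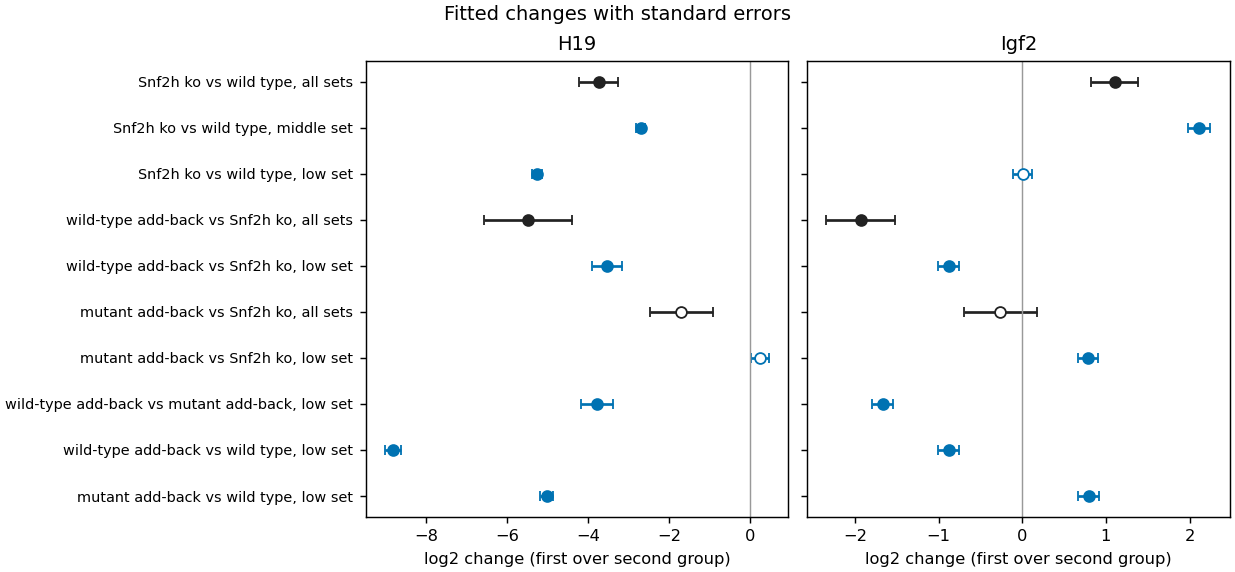
Fitted log2 change of H19 (left) and Igf2 (right), first-named over second-named group, with bars of 1 standard error, back-calculated from the test. For H19 in the wild-type add-back within the low set, the bars are too narrow to cover counting error. Filled points passed an adjusted p of 0.05, black points use all libraries and blue points a single depth set. The ko against wild-type rows show the Igf2 rise of 2.12 in the middle set beside 0.00 in the low set.

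By mean level, H19 ran from 0.218 ± 0.142 CPM in the wild-type add-back (n = 3) through 3.03 ± 0.546 CPM in the mutant add-back (n = 2) and 9.60 ± 9.67 CPM in ko (n = 5) to 133 ± 33.1 CPM in wild type (n = 8). The mutant add-back and ko, next to each other in that order, overlapped. Igf2 ran from 14.1 ± 0.975 CPM in the wild-type add-back through 25.0 ± 3.69 CPM in wild type and 44.8 ± 1.91 CPM in the mutant add-back to 53.4 ± 37.9 CPM in ko. The ko mean covers 94.6 ± 8.31 CPM in the middle set (n = 2) and 25.9 ± 0.345 CPM in the low set (n = 3), so its place in the order depends on the set. Per kilobase of exon, wild-type libraries held 58.3 ± 14.5 CPM of H19 and 5.51 ± 0.815 CPM of Igf2. Ko libraries held 4.20 ± 4.23 CPM per kilobase of H19 and 11.8 ± 8.36 of Igf2.

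The ratio of H19 to Igf2 counts within a library does not depend on scaling between libraries. It was 0.00474 to 0.0227 in the wild-type add-back, 0.0573 and 0.0786 in the mutant add-back and 0.0819 to 0.213 in ko, against 3.73 to 8.06 in wild type. Every wild-type library therefore held more H19 than Igf2 reads, and every other library held fewer. Both middle-set ko libraries had a ratio of 0.213, although H19 and Igf2 were each at their highest among ko libraries there. In wild type the low set had the lowest ratios, 3.73 to 4.03.

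**Figure D3:**
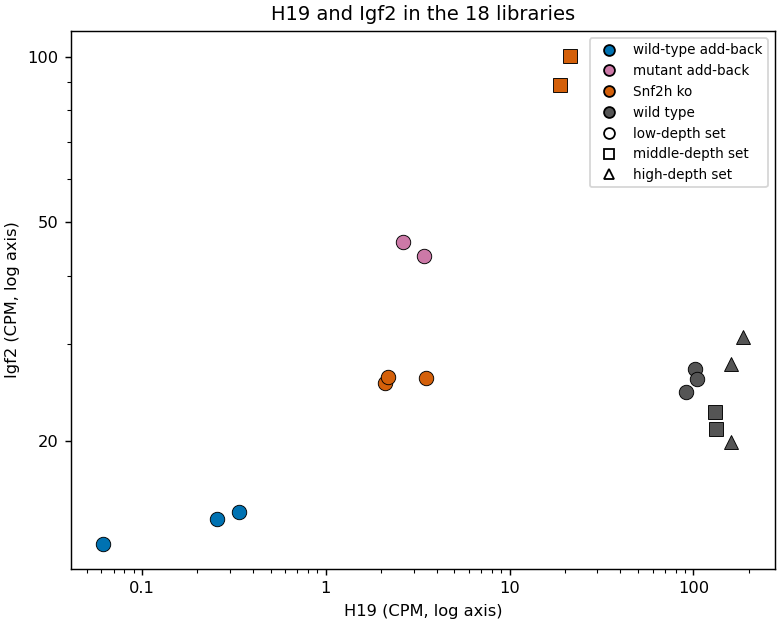
Igf2 against H19 in the 18 libraries, in CPM on log axes, with groups as colours and depth sets as symbols. Wild-type libraries lie to the right at 19.9 to 31.0 CPM of Igf2, and the low-set ko libraries lie at the same Igf2 height with H19 of 2.09 to 3.49 CPM.

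The table also holds rows for genes that overlap the pair. Whether a read in an overlap was counted in both rows, in 1 or in neither is not given in the sources used here. Mir675, within the H19 exon, had no count in the 3 wild-type add-back libraries, 1 and 0 counts in the mutant add-back and 9, 8, 0, 1 and 1 counts in ko. Wild-type libraries had 22 to 90 counts. It changed by −3.40 ± 0.43 in ko against wild type (adjusted p 5.1e-06). Per 100 H19 counts there were 1.62 Mir675 counts in ko and 1.39 in wild type. These are polyadenylated RNA libraries, so the row reports fragments of the H19 transcript and does not measure the mature microRNAs printed above. Igf2os, an antisense RNA at Igf2, had 52 and 63 counts in the middle-set ko libraries and 5 and 17 in the middle-set wild-type libraries, a change of 2.28 ± 0.45 (adjusted p 0.00019). In the low set it had 16 to 26 counts in ko and 26 to 37 in wild type, a change of −0.67 (adjusted p 0.11). Igf2os shares 98 exonic bases with Igf2 on the opposite strand in GENCODE. The counting's strand setting is not given in the sources used here, so reads of that stretch cannot be assigned to either gene with certainty. A GENCODE gene, Gm49394, lies on the same strand and shares 3596 exonic bases with Igf2, and it has no row of its own in the table. Reads from it and from Igf2 cannot be told apart there. Ins2, the insulin gene next to Igf2, and Nctc1 beyond H19 had 0 counts in all libraries.

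Of the 28 genes of the table with an end within 500 kb of the pair, 13 passed the filter and 8 had no count. In ko against wild type, 5 of the 13 rose and 5 fell, with a median log2 change of 0.35 against −0.01 over all tested genes. Over all tested genes, 26.8% rose and 28.2% fell in this comparison. Mir675 and Igf2os, described above, are among the 13 and may share reads with the pair. Kcnq1, a potassium channel gene of the neighbouring imprinted domain, rose by 2.66 ± 0.21 (adjusted p 5.9e-09), with 3.83 ± 1.06 CPM in ko and 0.604 ± 0.15 CPM in wild type. It rose in both sets, by 3.10 in the middle and 2.25 in the low set. Kcnq1 fell by 4.63 in the wild-type add-back against ko (adjusted p 4e-08), to 0.149 CPM or 1 to 4 counts per library. Th, which encodes the dopamine-synthesis enzyme tyrosine hydroxylase, fell by 1.93 in ko (adjusted p 9.8e-05), at 0.148 CPM in ko and 0.572 CPM in wild type, and was higher by 1.79 in the wild-type add-back than in ko (adjusted p 0.0026).

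Of the other tested neighbours, Ctsd (the lysosomal protease cathepsin D) rose by 0.59 (adjusted p 0.0022) and Cd81 (a tetraspanin) by 0.46 (adjusted p 0.0078). R74862 rose by 0.64 (adjusted p 0.0028). Dusp8, a MAP kinase phosphatase gene, rose by 1.06 (adjusted p 0.0088), with 1.52 in the middle set and 0.22 (adjusted p 0.35) in the low set. Mrpl23, a mitochondrial ribosomal protein gene, fell by 0.59 (adjusted p 7.9e-05). Ascl2, a trophoblast transcription factor, fell by 0.79 (adjusted p 0.0062). Lsp1, a leukocyte cytoskeletal protein gene, fell by 1.32 (adjusted p 0.016), but its change was 0.39 (adjusted p 0.55) in the low set. Tspan32 and Tssc4 changed by 0.35 and 0.16 (adjusted p 0.24 and 0.26). In the wild-type add-back against ko, 2 of the 13 rose and 4 fell, beside 22.5% and 22.4% of all tested genes. In the mutant add-back against ko, 0 of the 13 passed, where 0.322% of all tested genes were called. Within the low set 3 of the 13 rose and 0 fell, where 6.83% of all tested genes rose and 7.80% fell.

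**Figure D4:**
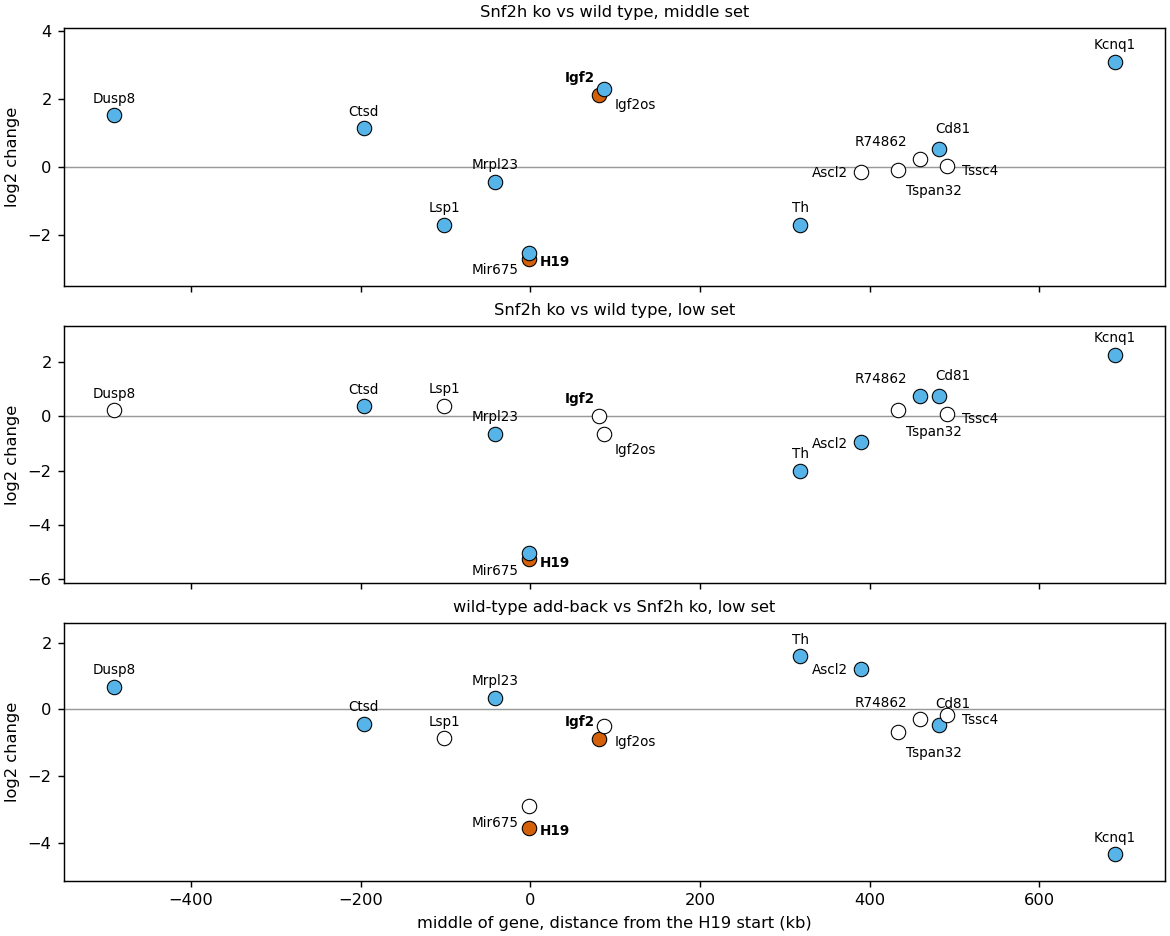
Log2 change of the tested genes around the pair, placed by the distance in kb of each gene's middle from the H19 start, in ko against wild type (middle and low sets) and in the wild-type add-back against ko (low set). Filled points passed an adjusted p of 0.05 and the pair is in orange. H19 is the lowest point in both ko panels and Kcnq1 the highest.

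Of 15 other imprinted genes of distal chromosome 7, 13 were tested, and in ko against wild type 4 rose and 2 fell (median 0.24), beside 26.8% of all tested genes that rose and 28.2% that fell. Slc22a18, a transporter gene of the neighbouring domain, rose by 1.24 (adjusted p 1.2e-06), with 11.5 ± 1.68 CPM in ko and 4.85 ± 1.14 CPM in wild type. It was lower by −0.87 in the wild-type add-back than in ko (adjusted p 0.0017). Cdkn1c, which encodes a cell-cycle inhibitor of the next domain, changed by 0.07 over all libraries (adjusted p 0.82). It rose by 0.77 in the middle set (adjusted p 1.7e-07) and fell by 0.64 in the low set (adjusted p 1.2e-07). Among 14 genes of the imprinted gene network that responds to H19 and Plagl1 in the mouse, 13 were tested, 4 rose and 6 fell (median −0.19), beside the same shares of 26.8% and 28.2% over all tested genes. Grb10, an adaptor that restrains insulin and IGF receptor signalling, rose by 1.18 (adjusted p 2.5e-07), and Gnas, encoding a G protein subunit, rose by 0.49 (adjusted p 8.2e-06). Dlk1, encoding a Notch-related membrane protein, fell by 0.94 (adjusted p 2.4e-06), and Gatm, encoding an enzyme of creatine synthesis, fell by 1.07 (adjusted p 9.2e-05).

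Igf2 protein acts through Igf1r and is cleared by Igf2r, itself an imprinted gene. Igf2r averaged 112 ± 40.7 CPM in ko and 183 ± 39.6 CPM in wild type, and fell by 0.71 ± 0.19 (adjusted p 0.0043). It fell in both sets, by 0.48 in the middle and 0.75 in the low set. The wild-type add-back held 175 ± 22.0 CPM of Igf2r, higher than ko by 0.65 (adjusted p 0.032), and the mutant add-back 68.6 ± 12.2 CPM. Igf1r changed by −0.22 in ko against wild type (adjusted p 0.11). Of 19 genes of the IGF axis 16 were tested, and 5 rose and 4 fell in ko (median −0.12). Those pooled counts are near the shares over all tested genes, 26.8% and 28.2%. Within the middle set 5 rose and 8 fell, where 29.9% of all tested genes rose and 31.9% fell. In the low set 7 rose and 5 fell, where 29.3% rose and 30.8% fell. Of the binding proteins, Igfbp6 rose over all libraries by 2.41 (adjusted p 8.1e-09) at 2.30 CPM in ko and 0.427 CPM in wild type. Igfbp7 rose by 1.13 (adjusted p 0.00017), and Igfbp3 fell by 0.51 (adjusted p 1.4e-05). Igf2bp2, an RNA-binding protein that binds Igf2 mRNA, fell by 0.62 (adjusted p 6.6e-05).

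The listed genes that read, set, protect or erase imprints, the last being Tet1 and Tet2, mostly fell in ko. All 20 on the list were tested, and 13 fell while 0 rose (median −0.30), where 28.2% of all tested genes fell and 26.8% rose. Smarca5, the gene targeted in ko, is among the 13, so its fall was set by the design. Zfp445, a zinc-finger protein that keeps imprints methylated, fell by 1.25 (adjusted p 2.8e-08) and was higher by 1.40 in the wild-type add-back than in ko (adjusted p 1.6e-07). Ctcfl, the germline relative of CTCF, fell (adjusted p 1e-07), with 0 or 1 count in each ko library and 13 to 118 counts in each wild-type library, too few in ko to give the size of the fall. The methyltransferase gene Dnmt3a fell by 1.40 (adjusted p 1.5e-05). Ctcf changed by −0.40 ± 0.08 (adjusted p 0.00063). Zfp57, a zinc-finger protein with a similar role to Zfp445, changed by 0.45 (adjusted p 0.061), and by 0.59 in the middle set (adjusted p 6.8e-07) and 0.10 in the low set (adjusted p 0.15). In the wild-type add-back against ko, 11 of the 20 rose and 0 fell, where 22.5% of all tested genes rose and 22.4% fell. The 20 include Smarca5, the gene added back. In the mutant add-back against ko 1 rose, Smarca5, and 0 fell, where 0.322% of all tested genes were called. Within the low set 2 of the 20 rose and 3 fell, where 6.83% of all tested genes rose and 7.80% fell.

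Both genes are known to be expressed in endoderm and mesenchyme of the mouse embryo, so markers of these cells are given beside the pair. In bulk RNA, fewer cells of a type and less RNA per cell cannot be told apart. The 18 endoderm markers summed to 13300 to 14500 CPM in the middle-set ko libraries and 2550 to 2680 CPM in middle-set wild type. In the low set they summed to 3770 to 4150 CPM in the wild-type add-back, 6250 to 6490 CPM in the mutant add-back, 3810 to 3940 CPM in ko and 5210 to 5280 CPM in wild type. Of the 15 tested, 15 rose in ko against wild type in the middle set, where 29.9% of all genes rose and 31.9% fell. In the low set 13 of the 15 fell, where 29.3% of all genes rose and 30.8% fell. In the mutant add-back against ko in the low set 13 rose, where 6.83% of all genes rose and 7.80% fell. The libraries with the highest Igf2 were the ones with the highest endoderm sums. In the mutant add-back against low-set wild type, however, 5 of the 15 rose and 5 fell, where 60.3% of all genes were called. Igf2 averaged 44.8 CPM and 25.8 CPM in these groups. Low-set ko and low-set wild type had a similar mean Igf2, 25.9 and 25.8 CPM, at the differing endoderm sums given above. Sparc, the endoderm marker with the smallest adjusted p, averaged 1810 ± 1010 CPM in ko and 753 ± 189 CPM in wild type. Gata4, a defining endoderm factor, stood at 181 to 197 CPM in the middle-set ko libraries and 59.4 to 63.5 CPM in the low-set ko libraries. Of 6 defining endoderm markers, 2 (Afp and Ttr) were under 1 CPM in every library. Trophoblast markers (10) summed to 408 to 436 CPM in middle-set ko, 168 to 172 CPM in low-set ko and 321 to 384 CPM in the mutant add-back. Wild type held 131 to 205 CPM. Of the 9 tested, 3 rose and 3 fell in ko against wild type, where 26.8% of all tested genes rose and 28.2% fell. The sets differed in direction. In the middle set 5 rose and 2 fell, where 29.9% of all genes rose and 31.9% fell. In the low set 2 rose and 5 fell, where 29.3% rose and 30.8% fell. In the mutant add-back against ko within the low set 5 rose and 0 fell, where 6.83% rose and 7.80% fell. The keratin genes Krt8 and Krt18 averaged 118 ± 55.4 and 111 ± 75.7 CPM in ko (SD). The mutant add-back held 177 ± 15.4 and 140 ± 31.6 CPM, and wild type 41.4 ± 5.92 and 44.7 ± 11.2 CPM. The lowest Krt18 value in ko, 53.9 CPM, lay within the wild-type range of 33.8 to 67.7 CPM. Tfap2c went the other way, at 28.8 CPM in ko and 21.1 CPM in the mutant add-back, against 65.1 CPM in wild type. The part of these cell types in the H19 and Igf2 values was not tested.

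**Figure D5:**
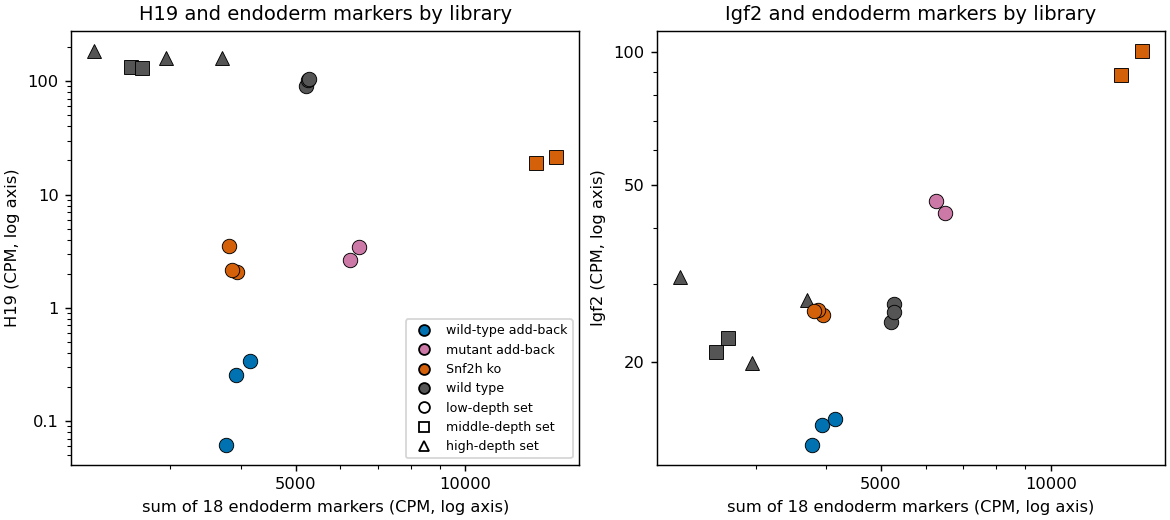
H19 (left) and Igf2 (right) against the summed CPM of 18 endoderm markers in each library, on log axes. The middle-set ko libraries, at 13300 to 14500 CPM of endoderm markers, hold the highest Igf2 and the highest H19 among ko libraries. H19 in every ko library lies below every wild-type library, but no wild-type library has a marker sum above 5280 CPM.

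Feeder and fibroblast markers (20) summed to 1190 to 1460 CPM in the wild-type add-back, 667 to 978 CPM in the mutant add-back and 1110 to 1270 CPM in ko, against 915 to 2330 CPM in wild type. The direction between ko and wild type differed by set. In the low set ko held 1110 to 1140 CPM and wild type 915 to 966 CPM. In the middle set ko held 1200 to 1270 CPM and wild type 1620 to 1720 CPM. Most of these sums is Fn1 (fibronectin), which averaged 1240 ± 147 CPM in the wild-type add-back and 597 ± 172 CPM in the mutant add-back (SD). It averaged 943 ± 63.8 CPM in ko and 1460 ± 525 CPM in wild type. Of 17 tested, 14 rose and 3 fell in the mutant add-back against wild type, where 45.5% of all tested genes were called. In the wild-type add-back against ko 0 rose and 13 fell, where 22.5% of all tested genes rose and 22.4% fell. Within the middle set 14 of the 17 rose and 3 fell in ko against wild type, where 29.9% of all tested genes rose and 31.9% fell. In the low set 13 rose and 0 fell, where 29.3% rose and 30.8% fell. Over all libraries 13 of the 17 rose and 3 fell in ko against wild type, where 26.8% of all tested genes rose and 28.2% fell. Those with the smallest adjusted p were Fbln2, at 28.5 CPM in ko and 2.57 CPM in wild type, Thbs1 at 87.6 CPM in ko and 17.3 CPM in wild type, Col1a2 at 8.28 CPM in ko and 0.968 CPM in wild type, and Tnc at 20.1 CPM in ko and 0.311 CPM in wild type. Col1a1, a fibroblast collagen gene, stood at 10.8 to 19.8 CPM in ko and 2.30 to 6.90 CPM in wild type. Among the other defining fibroblast markers, Col3a1 averaged 1.10 CPM in ko and 0.124 CPM in wild type, Postn 1.39 CPM in ko and 0.0448 CPM in wild type, and Prrx1 1.83 CPM in ko and 0.106 CPM in wild type. Pdgfrb stood at 2.85 to 3.63 CPM in ko and 3.66 to 10.2 CPM in wild type. Lum had 0 counts in every ko library and Dcn at most 2. Of the 8 defining markers, between 1 and 4 were at 0 in a library. Their part in the H19 and Igf2 values was not tested. The 8 ES cell markers summed to 4810 to 4870 CPM in middle-set ko and 6120 to 6220 CPM in low-set ko, the ends of the range over all libraries. Wild type held 5190 to 5490 CPM. In ko against wild type 2 of the 8 rose and 5 fell in the middle set, where 29.9% of all tested genes rose and 31.9% fell. In the low set 5 rose and 1 fell, where 29.3% rose and 30.8% fell.

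The genes whose log2 CPM followed H19 most closely over the 18 libraries included 3 from the Y chromosome. They were Eif2s3y (Pearson r = 0.948), Uty (0.919) and Ddx3y (0.906), followed by Cgnl1 (0.901) and Cnga3 (0.880), out of 10956 genes ranked. Eif2s3y averaged 0.468 ± 0.121 CPM in the wild-type add-back, 0.487 ± 0.205 CPM in the mutant add-back and 2.77 ± 2.40 CPM in ko, against 68.4 ± 4.84 CPM in wild type. Like H19, it was lower in the low-set than in the middle-set ko libraries, by −2.39 in log2 (adjusted p 3.2e-09). Igf2 was followed most closely by Kdelr2 (0.966), Mmp15 (0.955), Snx2 (0.952), Fam198b (0.951) and Sdc4 (0.950). Igf2 ranked 2532 among the genes ordered by likeness to H19. These correlations describe libraries that share group and depth set.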

How the data were processed

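The labels' protocols describe polyA RNA purified with RNeasy and TruSeq stranded mRNA libraries. The submitters' processing notes name bcl2fastq 2.17, STAR without a version and the mouse build mm10 (GRCm38), with no role or order. The deposited values are whole-number read counts per gene of 18 libraries with the exonic width per gene, per the file headers. Which counter and annotation were used, and whether strand was kept, is not given in the sources used here. Of 24116 genes, 9 had no symbol and 3581 had no count.

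The counts were tested here with edgeR 4.0.16 in R 4.3.3: TMM scaling, filterByExpr with a count minimum of 10 (14901 genes), robust quasi-likelihood fits, two-sided tests and Benjamini-Hochberg adjustment over all tested genes at 0.05. 1 fit had a mean per group, the other a mean per group and depth set (limits of 20 M and 27 M counts). CPM used TMM-scaled totals. The common biological coefficient of variation was 0.169. DESeq2 1.42.0, other scalings, filters and left-out libraries were alternatives. The fit with a mean per group was run on simulated counts without depth sets, so that run does not cover the differences between sets. No pair of replicates differed by less than sampling noise (chi-square per gene of at least 1.48).

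Members, lists, markers, depth sets and tests were chosen with earlier results of these data known. The text names the pair in every comparison, Smarca5, Igf2r, Igf1r, Cdkn1c, Ctcf and Zfp57, up to 4 members of each list of genes around the pair with the smallest adjusted p in ko against wild type, the tested neighbours, and the 5 genes most like each member among those averaging at least 5 CPM in a group. Motifs were searched on both strands of RefSeq windows. The marker genes, Ins2 and Nctc1 were named after their values were seen.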

Additional observations from a re-analysis of the deposited data

Results flagged for a closer look

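The effect of Snf2h ko against wild type was compared between the low and the middle depth set by a test of the difference itself (edgeR quasi-likelihood test, Benjamini-Hochberg adjustment). It differed for 4 of the followed genes (H19, Igf2, Smarca5, Igf2r, Igf1r, Cdkn1c, Ctcf and Zfp57). The same test called 26.7% of all tested genes, so such a difference was common. Low set minus middle set, the effect was −2.56 in log2 for H19 (adjusted p 2.2e-09), −2.11 for Igf2 (adjusted p 1.4e-08), −1.41 for Cdkn1c (adjusted p 6.6e-09) and −0.48 for Zfp57 (adjusted p 0.00056). H19 fell in both sets. Igf2 and Zfp57 passed the threshold as higher in ko in the middle set only, and Cdkn1c changed sign. The labels do not say what separates the sets, and no cause was tested.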

How the results depend on the processing

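All 12 changes of the pair kept their direction and side of the threshold under DESeq2 size factors, library size alone and the DESeq2 Wald test. The high wild-type set was left out as an alternative chosen after seeing the data, and the 6 changes against wild type kept theirs. With the depth set as a covariate, Igf2 in the mutant add-back was 0.31 against ko (adjusted p 0.74), reversed, and 1.19 against wild type (adjusted p 0.020). With the low set alone it was 0.79 against ko (adjusted p 2.4e-07), reversed, and 0.79 against wild type. There, Igf2 was 0.0045 in ko against wild type and −0.87 in the wild-type add-back over wild type, and H19 was 0.24 in the mutant add-back against ko, reversed. Without the filter, H19 in the wild-type add-back over the mutant add-back was −3.77 (adjusted p 0.094). Leaving out 1 library at a time, 101 of 108 changes kept their call and direction. Of the others, that H19 change ran from −4.22 to −3.33, the Igf2 change between the same groups from −1.71 to −1.61, and Igf2 in the mutant add-back against ko from −0.46 to 0.097, positive without ko replicate 2. A lone add-back library was assumed to vary like the other groups. The cause of these shifts was not tested.

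Whether replicate numbers shared between groups pair the libraries could not be decided. Same-numbered ko and wild-type libraries had deviations correlated from −0.25 to 0.17, and 1 of the 5 ko libraries correlated best with its own number. With a replicate block Igf2 in ko against wild type was 0.92 (adjusted p 0.055), H19 in the wild-type add-back over the mutant one was −4.02 (adjusted p 0.081), and 1002 genes were called between the wild-type add-back and wild type.

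Gene counts moved by over 1.5 times as follows. The mutant add-back against ko gave 48, but 332 with DESeq2, 480 with the set covariate, 3685 in the low set alone and 4 to 143 with 1 library left out (25 without ko replicate 1, 4 without mutant add-back replicate 1, 143 without replicate 3). The wild-type add-back over wild type gave 238, but 481, 1532 and 4786 under the same settings and 44 to 72 without an add-back library. The comparison of the add-backs gave 5507, but 9744 in the low set alone and 3014 without mutant add-back replicate 1. The mutant add-back against wild type gave 6787, but 3675 without that library. Depth limits H19 in the wild-type add-back, where 1 to 5 counts per library set the value.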
